A study of Mus musculus with 6 samples.

Results

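The aquaporins, membrane channels for water, were followed as 8 genes of the mouse kidney: Aqp1, Aqp2, Aqp3, Aqp4, Aqp6, Aqp7, Aqp8 and Aqp11. They were taken from the deposited count table by gene symbol, each symbol matching 1 of its 22040 genes. The table covers 6 RNA-seq libraries of total RNA from renal cortex of C57BL/6 mice, titled WT. Of these, 3 followed a sham operation and 3 (IR24h) followed ischemia/reperfusion, in which both renal pedicles were clipped for 30 min and tissue was taken at 24 h of reperfusion. The labels do not state the age or sex of the mice, what the sham operation involved, or whether each library came from its own mouse. The p-values below therefore measure the spread between libraries, part of which may be technical.

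Aquaporins sit in the membrane as tetramers, and each subunit forms its own pore. In the kidney, AQP1 carries water out of the proximal tubule and the thin descending limb. AQP2 is the channel that vasopressin moves to the apical membrane of collecting duct principal cells, and AQP3 and AQP4 let that water leave through the basolateral membrane. AQP6 lies in intracellular vesicles of intercalated cells and also passes anions. AQP7 and AQP3 are aquaglyceroporins, which pass glycerol as well as water. AQP11 is an intracellular member, and mice without it develop polycystic kidneys. AQP8 is best known from the gut, pancreas and liver.

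Libraries held 12877237 to 17061844 counts. Genes of the mitochondrial genome took 13.1 to 14.2% of them in sham and 68.9, 26.2 and 49.2% in IR24h libraries 1, 2 and 3, which left 4008001, 11804440 and 6755476 counts from other genes. Across genes, log2 CPM (a gene's counts scaled to the library's TMM-normalised total) of IR24h library 2 correlated at 0.848 to 0.859 with the sham libraries and at 0.823 and 0.836 with IR24h libraries 1 and 3. IR24h libraries 1 and 3 correlated at 0.916 with each other. Gene lengths behind the values also differed between the groups. FPKM scales a gene's fragments by its length and the library's depth, so each count and FPKM pair implies a length. Those lengths differed between the groups by over 0.01 on the log2 scale for 13.1% of 12806 genes. Such processing and the injury cannot be told apart.

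Of the 8 aquaporins, 7 passed the expression filter and were tested. Aqp4 rose, Aqp3 and Aqp11 fell, and Aqp1, Aqp2, Aqp6 and Aqp7 were not called. A call here is an adjusted p under 0.05 by edgeR's quasi-likelihood test with Benjamini-Hochberg adjustment. Of all 13609 genes tested, 16.3% were called by that rule, 8.65% higher and 7.62% lower in IR24h, against 3 of the 7 members (42.9%). The tested aquaporins had a median of 0.32 in log2 fold change, where all genes had 0.05. The libraries of the 2 groups did not overlap for 4 of the 7 tested members (Aqp1, Aqp3, Aqp4 and Aqp11); over all tested genes 41.5% did not, 19.9% lying higher and 21.7% lower. The untested Aqp8 did not overlap either. With 3 libraries against 3, the exact permutation test cannot give a 2-sided p below 0.1, which it gave for these 5. Leaving out sham 1, 2 or 3 left 0 aquaporins higher and 1 lower (Aqp11). Leaving out IR24h 3 gave 2 higher (Aqp4 and Aqp8) and 3 lower (Aqp1, Aqp3 and Aqp11). Aqp8 passed the filter in that fit only through its injured libraries, and it is not among the 7 members of the main test. IR24h library 3 had the highest injured CPM for 5 of the 8 genes, Aqp1, Aqp2, Aqp3, Aqp4 and Aqp6.

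**Figure D1:**
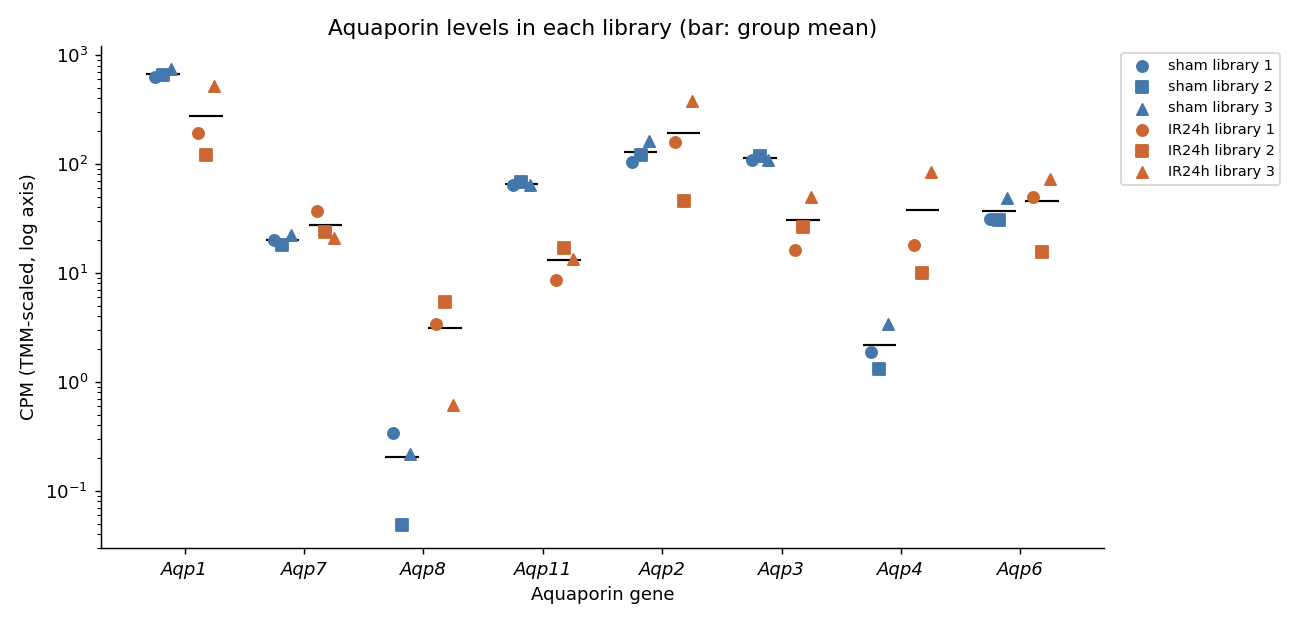
CPM of the 8 aquaporins in each library on a log axis, with sham in blue, IR24h in orange, 1 marker shape per library number and a bar at each group mean. The IR24h points of Aqp4 and Aqp8 all sit above sham and those of Aqp1, Aqp3 and Aqp11 all below, while Aqp2, Aqp6 and Aqp7 overlap.

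Aqp1 was the most abundant member per gene length in sham, at 283 ± 15.998 FPKM (SD, n = 3). Aqp2 followed at 100.3 ± 19.2, Aqp3 at 63.8 ± 4.44 and Aqp6 at 14.2 ± 3.29 FPKM. Aqp7 (7.27 ± 0.518) and Aqp11 (6.43 ± 0.388) overlapped between libraries, so their order was not resolved. Aqp4 (0.313 ± 0.143) and Aqp8 (0.0711 ± 0.0531 FPKM) were lowest, and every other neighbouring pair in the sham order was separated in all libraries. In IR24h the order by mean FPKM was Aqp2, Aqp1, Aqp6, Aqp3, Aqp7, Aqp4, Aqp11 and Aqp8. There the ranges of most neighbours overlapped, the exceptions being Aqp1 above Aqp6 and Aqp4 above Aqp11. The IR24h FPKM of Aqp6 and Aqp4 rest on shorter gene models than in sham (2060 against 2846 and 5082 against 7651 bases). At the same count a shorter model gives a higher FPKM, but the count may differ too, and the net effect was not tested. Their places in that order are therefore not settled.

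The make-up of the aquaporin signal differed between the groups. As a share of the summed FPKM of the 8 genes in a library, Aqp1 held 60.9, 59.3 and 58.6% in sham 1 to 3 and 31.1, 40.8 and 35.8% in IR24h 1 to 3. Aqp2 held 18.8, 20.6 and 23.5% in sham and 47.6, 28.9 and 48.6% in IR24h. Aqp3 held 14.3, 14.6 and 11.6% in sham, against 3.52 and 4.66% in IR24h 1 and 3 and 12.0% in IR24h 2, which lay inside the sham range. Aqp6 went from 2.96 ± 0.479% to 7.83 ± 2.14%, and Aqp4 from 0.0650 ± 0.0255% to 2.11 ± 0.821%. These shares need no scaling between libraries, but the gene lengths behind the FPKM of Aqp4 and Aqp6 were not the same in the 2 groups, as given with those genes.

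**Figure D2:**
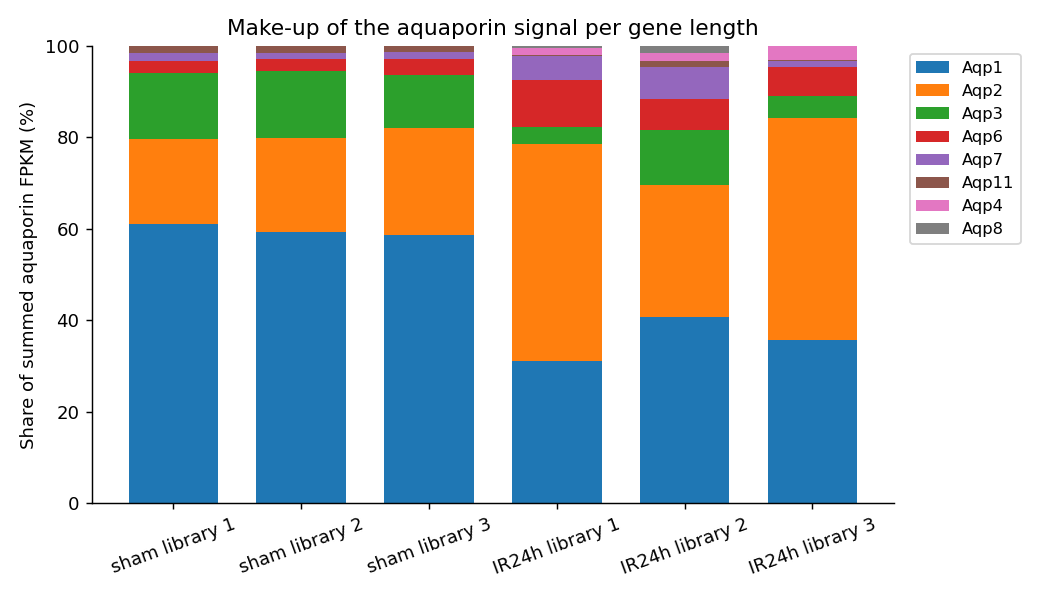
Stacked bars of the share of summed aquaporin FPKM, in percent, that each of the 8 genes held in each library. Aqp1 filled 58.6 to 60.9% of the bar in sham libraries and 31.1 to 40.8% in IR24h libraries, where Aqp2 filled 28.9 to 48.6%.

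Among the members of the proximal tubule, Aqp11 fell 4.99-fold, and Aqp1 was lower in every injured library without reaching a call. Aqp11 (ENSMUSG00000042797) lies on chromosome 7 from 97724006 to 97738289 (GRCm38). It stood at 63.5, 68.0 and 64.0 CPM in sham 1 to 3 and at 8.66, 16.8 and 13.5 CPM in IR24h 1 to 3. All injured libraries were far below all sham libraries, and the injured ones differed among themselves 1.94-fold. In log2 terms Aqp11 changed by −2.32 ± 0.30 (SE; adjusted p = 0.00441), and the call held under each alternative run, with values from −2.67 to −1.95.

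Aqp1 (ENSMUSG00000004655; chromosome 6, 55336432 to 55348555) stood at 628, 650.03 and 748 CPM in sham and at 191, 119.9 and 515 CPM in IR24h 1 to 3. The groups did not overlap, but IR24h library 3 lay close to sham and 4.30-fold above IR24h library 2. On the log2 scale Aqp1 differed by −1.29 ± 0.53 (adjusted p = 0.130). Without IR24h library 3 the value was −2.12, and Aqp1 was then called (adjusted p = 0.0194).

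Aqp7 (ENSMUSG00000028427; chromosome 4, 41033074 to 41048139), the aquaglyceroporin of the straight proximal tubule and of fat cells, overlapped between the groups. Its sham libraries held 19.9, 18.1 and 22.2 CPM and its injured ones 37.4, 23.7 and 21.1 CPM, a log2 fold change of 0.45 ± 0.29 (adjusted p = 0.321). When counts were scaled by library size alone, the value was −0.095 (adjusted p = 0.894), and that scaling moved the median of all genes from 0.05 to −0.39. Of 4 tested adipocyte genes 3 were higher and 1 lower, and the summed level of the 12 listed was 422 to 465 CPM in sham and 297 to 381 CPM in IR24h. Without sham 1, 2 or 3, 1, 0 and 1 of them were higher and 0 lower; without IR24h 1, 2 or 3, 1, 3 and 4 were higher. Fabp4, a fatty acid binding protein gene, rose from 17.7 ± 5.15 to 71.6 ± 9.82 CPM and the lipid droplet gene Plin4, whose gene length differed between the groups, from 2.05 ± 0.286 to 19.6 ± 21.7 CPM. Lpl, which encodes lipoprotein lipase, fell from 427 ± 21.3 to 216 ± 36.5 CPM. Lpl made up most of the list's summed level in sham, so the lower sum in IR24h reflects Lpl and not the other adipocyte genes. The highest CPM was in IR24h library 2 for 9 of the 12, among them Ucp1 and Cidea at only 0.0511 and 0.102 CPM, near the floor. Lep and Plin1, which mark fat cells, had 22.2 and 12.6 CPM there and were at 0 in the other 5 libraries. Cidec, another fat cell gene, had 6.82, 19.5 and 0.699 CPM in IR24h 1 to 3 and 0.0870 ± 0.0266 CPM in sham. The part of fat cells in the Aqp7 values was not tested.

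Aqp8 (ENSMUSG00000030762; chromosome 7, 123462291 to 123468004) was near the detection limit and failed the expression filter, so it has no main test. Its counts were 6, 1 and 4 in the sham libraries and 24, 105 and 7 in the injured ones, or 0.343, 0.0481 and 0.216 CPM against 3.41, 5.37 and 0.612 CPM. The pooled ratio was 18.5 (95% exact counting interval 10.005 to 37.9, which covers counting error only). IR24h library 2 gave most of those counts, and library 3 lay just above sham. Of the 12 listed adipocyte genes, 9 were highest in IR24h library 2 too, Ucp1 and Cidea among them near the floor. The part of adipocyte genes in the Aqp8 counts was not tested. Without the filter, Aqp8 was called higher (3.91, adjusted p = 0.0301). It was not called without sham 1, 2 or 3 (adjusted p = 0.0861, 0.118 and 0.120), fits in which it passed the filter through its injured libraries.

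Beside these members, 13 of 18 tested proximal tubule markers fell (72.2%, against 7.62% of all tested genes) and the other 5 were not called. Their median was −3.14 in log2 fold change. Without sham 1, 2 or 3, 8 of the markers were lower in each fit. Slc34a1, the main phosphate transporter of the brush border, fell from 5869 ± 335 to 308 ± 117 CPM and Slc34a3, another of that family, from 114 ± 8.79 to 2.24 ± 1.09 CPM. Slc7a13, an amino acid transporter of the straight segment, fell from 534 ± 111 to 48.2 ± 8.75 CPM and the acyl-CoA synthetase gene Acsm2 from 3339 ± 144 to 357 ± 260.2 CPM. Pck1, a gene of glucose synthesis, had 1531 ± 264 and 1259 ± 831 CPM and was not called. The summed level of the list was 23179 to 24079 CPM in sham and 3225 to 8016 CPM in IR24h. In bulk tissue, fewer cells of a type and less RNA in each cell cannot be told apart. The values of Aqp11 (−2.32) and of Aqp1 (−1.29, not called) were nearer 0 than that median, and no test compared them with it.

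AQP1 also lies in red blood cells and in endothelium of the vasa recta. Of 12 endothelial markers 1 fell (Kdr, the VEGF receptor, from 59.8 ± 10.2 to 19.6 ± 5.59 CPM) and 11 were not called. That share, 8.33% lower, was close to the 7.62% of all tested genes. The Kdr call was lost without sham 1, 2 or 3, and without IR24h 2, 5 endothelial markers were higher. Plvap (159.9 ± 21.5 to 175 ± 145 CPM), Pecam1 (41.0 ± 2.45 to 47.96 ± 29.1 CPM) and Flt1 (39.5 ± 3.57 to 44.8 ± 30.7 CPM), the other abundant ones, were not called. The summed level was 476 to 534 CPM in sham and 1.36, 0.230 and 1.40 times the sham mean in IR24h 1 to 3, where Aqp1 stood at 0.283, 0.178 and 0.763 times its own. No red blood cell marker of 6 tested was called by edgeR, by DESeq2 or by limma-voom, and 0 had an unadjusted p under 0.05. Slc4a1, the red cell and intercalated cell anion exchanger, had 33.6 ± 1.23 and 20.9 ± 11.9 CPM, Hba-a1 13.5 ± 9.23 and 27.0 ± 17.7 CPM, and Hbb-bt 12.6 ± 8.82 and 12.6 ± 10.1 CPM. Their list's sum was 1.21, 0.345 and 1.61 times the sham mean in IR24h 1 to 3. The part of these cells in the Aqp1 values was not tested. Glycerol metabolism had 2 lower and 7 not called of 9 tested genes, 22.2% lower against 7.62% of all tested genes. Gk, which encodes glycerol kinase, fell from 526 ± 36.6 to 141 ± 49.6 CPM and Pgp, a phosphatase that releases glycerol from its phosphate, from 56.0 ± 2.80 to 18.1 ± 4.61 CPM. Gpd1 (443 ± 55.4 to 237 ± 169 CPM) and Tkfc (362 ± 30.5 to 222 ± 47.1 CPM) were not called. The gene lengths behind the Pgp and Tkfc values differed between the groups. Neither of the 2 was called without sham 1, 2 or 3, and 6 of the list were lower without IR24h 2.

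The water channels of the principal cell went different ways: Aqp3 fell, Aqp4 rose and Aqp2 was not called. Aqp2 (ENSMUSG00000023013; chromosome 15, 99579055 to 99584547) was measured at 104, 122 and 162 CPM in sham 1 to 3, and at 158, 45.8 and 377 CPM in IR24h 1 to 3. IR24h library 2 lay below all sham libraries, library 1 inside their range and library 3 above it, an 8.23-fold spread. The resulting log2 fold change, 0.58 ± 0.66, was not called (adjusted p = 0.567). It turned to −0.35 without IR24h library 3.

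Aqp3 (ENSMUSG00000028435; chromosome 4, 41092722 to 41098183) stood at 109, 118 and 109 CPM in sham, and at 16.1, 26.2 and 49.7 CPM after injury. All injured libraries lay far below the sham range, with library 3 again the highest. This was a 3.66-fold fall (log2 fold change −1.87 ± 0.41, adjusted p = 0.0239). Leaving out any 1 sham library ended the call, at values of −1.90, −1.84 and −1.87 and adjusted p of 0.0823, 0.0926 and 0.0897. Scaling by library size alone did so too (−2.28, adjusted p = 0.0508).

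The upstream sequences of Aqp2 and Aqp3 are shown because both channels serve the principal cell, where Aqp3 was called and Aqp2 was not; the test of their ratio, given with the other ratios, did not pass. They are 250 bases up to the RefSeq start in GRCm38.p6, 5′ to 3′ on the gene's strand, with motif matches in capitals. RefSeq promoters were matched for 7 of the 8 genes, all but Aqp4.
Aqp2, chr15:99578806-99579055, plus strand: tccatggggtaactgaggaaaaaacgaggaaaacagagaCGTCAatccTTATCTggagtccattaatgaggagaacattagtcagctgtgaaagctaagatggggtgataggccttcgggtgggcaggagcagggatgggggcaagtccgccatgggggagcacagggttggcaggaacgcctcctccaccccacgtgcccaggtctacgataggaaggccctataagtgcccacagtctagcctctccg
Aqp3, chr4:41098184-41098433, minus strand: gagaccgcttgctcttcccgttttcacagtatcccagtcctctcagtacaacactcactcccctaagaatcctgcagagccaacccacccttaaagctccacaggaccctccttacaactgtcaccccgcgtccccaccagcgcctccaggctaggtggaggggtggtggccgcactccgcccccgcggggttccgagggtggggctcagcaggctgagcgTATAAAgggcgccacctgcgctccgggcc

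Motifs were searched as exact letters on both strands: TGACG, the half-site of the cAMP response element; AGATAA, a motif bound by the GATA factors; and TATAAA, known as the TATA box. The Aqp2 window held the half-site 211 to 207 bases and the GATA motif 202 to 197 bases before the start, both on the minus strand, and no 2 matches overlapped. The Aqp3 window held the TATA box 29 to 24 bases before its start. Of 32851 mouse windows of that length, 17.8% held the half-site, 9.99% the GATA motif and 12.4% the TATA box. These matches describe letters, and no binding was measured.

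Aqp4 (ENSMUSG00000024411; chromosome 18, 15389496 to 15410982) was scarce in sham, at 1.88, 1.30 and 3.40 CPM (33, 27 and 63 counts). After injury it stood at 18.04, 10.02 and 84.8 CPM (127, 196 and 970 counts). Every injured library lay above every sham library, but library 3 was 8.46-fold above library 2. Aqp4 rose 17.1-fold in mean CPM (log2 fold change 4.10 ± 0.88, adjusted p = 0.0216). Without IR24h library 3 the log2 value was 2.67 (adjusted p = 0.0301). Without a sham library it was not called (adjusted p = 0.0897, 0.0958 and 0.0742 for sham 1 to 3). The gene model was 7651 bases long in the sham values and 5082 in the IR24h values. Its part in the Aqp4 result was not tested.

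Markers of deeper kidney zones moved with Aqp4. AQP4 is known chiefly from medullary collecting ducts, and thin limbs lie in the medulla. Of 10 tested thin limb markers 5 rose (50.0%, against 8.65% of all tested genes) and 5 were not called. The markers had a median of 2.47 in log2 fold change. Their summed level was 99.6 to 152 CPM in sham, against 295 to 1113 CPM in IR24h. Per library the sum was 3.81, 2.44 and 9.21 times the sham mean in IR24h 1, 2 and 3, the same order as the Aqp4 values. Cryab, a small heat shock protein, rose from 19.5 ± 9.15 to 284 ± 267 CPM and Bst1 from 1.59 ± 0.837 to 18.2 ± 13.1 CPM. The claudin gene Cldn4 rose from 16.04 ± 0.183 to 61.9 ± 22.3 CPM and Tspan8, a tetraspanin gene, from 28.7 ± 3.06 to 66.6 ± 19.7 CPM. Fst, the activin binding protein gene, rose from 0.628 ± 0.766 to 12.7 ± 4.76 CPM. It passed the expression filter only through its injured libraries, so only a rise could be seen for this gene. Without sham 1, 2 or 3, the list had 0, 0 and 3 higher members, and without IR24h 2 it had 8. Slc14a2, the urea transporter of inner medullary collecting duct and thin descending limb, was at 0 in sham 1 and 2, had 4.69 CPM in sham 3 and had 42.9, 22.0 and 130.1 CPM in IR24h 1 to 3 (adjusted p = 0.0656). The part of medullary tissue in the Aqp4 result was not tested. AQP3 also lies in urothelium, of whose markers 1 of 3 tested rose (Upk3b, a uroplakin gene, from 0.290 ± 0.162 to 3.72 ± 3.58 CPM) and 2 were not called; the sum of all 8 was 1.43 to 5.12 CPM in sham and 4.24 to 21.9 CPM in IR24h. The share higher was 33.3% of the 3 tested, against 8.65% of all tested genes. Upk3b passed the expression filter only through its injured libraries. Leaving out IR24h 2 gave 1 higher urothelium marker, and leaving out any 1 of the other 5 libraries gave 0.

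Among the 14 principal cell markers, all tested, 1 rose and 13 were not called (median 0.16). The share higher, 7.14%, was close to the 8.65% of all tested genes. The riser was Elf5, a transcription factor of principal cells, from 0.324 ± 0.189 to 5.36 ± 5.73 CPM, with 1.85, 2.25 and 12.0 CPM in IR24h 1 to 3. Elf5 passed the expression filter only through its injured libraries, so only a rise could be seen for this gene. It was not called without sham 1, 2 or 3, nor when scaled by library size alone; DESeq2 called 3 of the 14 higher and 2 lower. Without IR24h 2, 5 were higher and 3 lower, and without IR24h 3, 0 were higher and 1 lower. Hsd11b2, which shields the mineralocorticoid receptor from cortisol-like steroids, went from 194 ± 30.2 to 107 ± 76.5 CPM and was not called. The potassium channel gene Kcnj1 had 152 ± 6.80 and 165 ± 70.3 CPM and the sodium channel gene Scnn1a 133 ± 21.3 and 59.7 ± 40.5 CPM, neither called. The list's sum was 0.676, 0.571 and 1.29 times the sham mean in IR24h 1, 2 and 3, lowest in library 2 and highest in library 3, as Aqp2 was. The members did not all share that order. Kcnj1 and Hsd11b2, both abundant, had it, while Scnn1b was lowest in library 3 and Scnn1g lowest in library 1 and highest in library 2.

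Aqp6 (ENSMUSG00000043144; chromosome 15, 99601400 to 99605477) was at 31.4, 30.4 and 48.2 CPM in sham, and at 49.7, 15.5 and 72.8 CPM in IR24h. Like Aqp2 it was lowest in IR24h library 2 and highest in library 3, and the groups overlapped. Its log2 fold change of 0.32 ± 0.52 (adjusted p = 0.692) changed sign without IR24h library 3 (−0.18) and under scaling by library size alone (−0.27). The gene model was 2846 bases in the sham values and 2060 in the IR24h values. Of 13 intercalated cell markers 6 fell (46.2%, against 7.62% of all tested genes) and 7 were not called. Their median was −1.11, with a summed level of 734 to 802 CPM in sham and 310.1 to 521 CPM in IR24h. Rhbg, an ammonia channel gene, fell from 50.1 ± 9.29 to 16.97 ± 3.05 CPM and the anion exchanger Slc4a9 from 116 ± 4.69 to 50.8 ± 5.98 CPM. The gene length behind the Slc4a9 values differed between the groups. Hmx2, a homeobox gene, fell from 15.0 ± 3.17 to 2.67 ± 1.33 CPM. Rhcg, the other ammonia channel gene, had 119.9 ± 11.9 and 86.6 ± 47.2 CPM and the proton pump gene Atp6v1b1 105 ± 11.9 and 80.2 ± 33.6 CPM, neither called. Without sham 1, 2 or 3 the lower count was 1, 0 and 0, and without IR24h 3 it was 3.

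**Figure D3:**
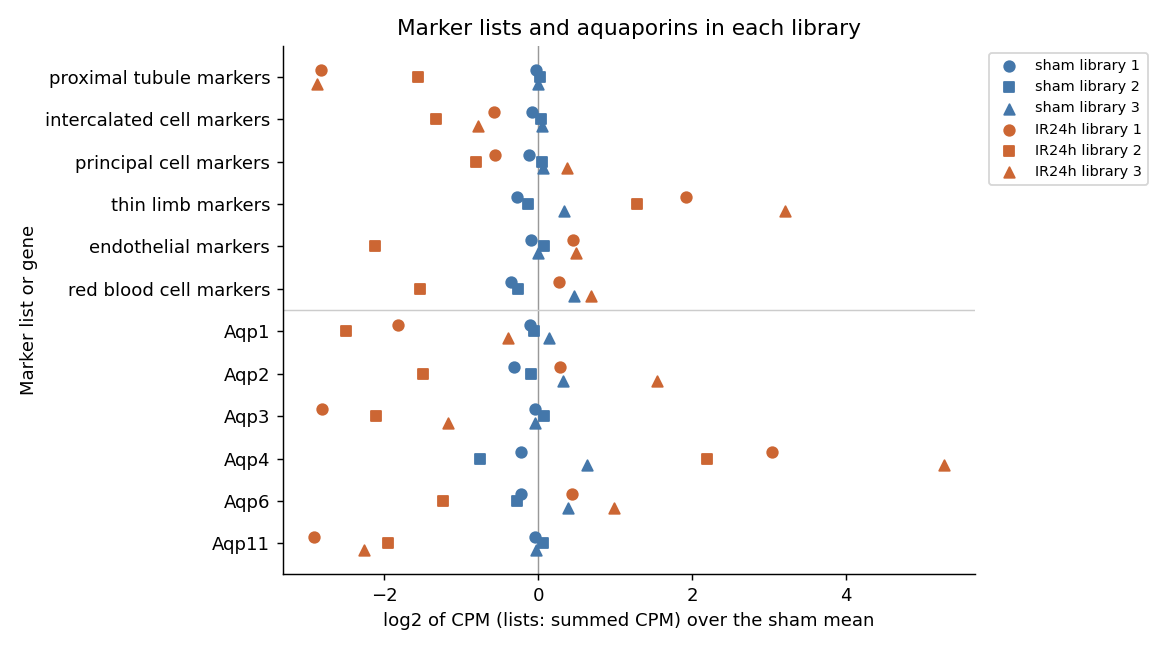
For 6 marker lists (summed CPM, above the line) and 6 aquaporins (CPM, below it), each point is the log2 of the level in 1 library over the sham mean, blue for sham and orange for IR24h. In IR24h library 3 thin limb markers stood at 9.21 times the sham mean and Aqp4 at 38.6 times, the highest of any library for both.

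Ratios between aquaporins within a library do not depend on scaling between libraries, and 6 were compared. The log2 count ratio of Aqp3 to Aqp2 was 0.06, −0.04 and −0.57 in sham and −3.29, −0.81 and −2.92 in IR24h 1 to 3. It was lower in 3 of 3 injured libraries, with a mean difference of −2.16 (exact permutation p = 0.1, 2-sided; adjusted p = 0.15 over the 6 ratios). IR24h library 2 lay nearest to sham. Aqp4 to Aqp2 went from −5.95 ± 0.51 to −2.49 ± 0.55, a difference of 3.47 with no overlap, of which the library 1 to 3 values were −3.12, −2.19 and −2.15.

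The spread of Aqp4 across the injured libraries was thus narrower against Aqp2 than in CPM. Aqp6 to Aqp2 stood at −1.83 ± 0.15 in sham and −1.86 ± 0.44 in IR24h, a difference of −0.04 that changed sign when sham 1, sham 3 or IR24h 3 was left out (0.0096, 0.00056 and 0.22). Aqp1 to Aqp2 went from 2.40 ± 0.19 to 0.70 ± 0.60 and Aqp7 to Aqp1 from −5.07 ± 0.09 to −3.10 ± 1.31, both without overlap and with the same p values as Aqp3 to Aqp2. In the last pair IR24h library 3 (−4.61) lay near the sham values and libraries 1 and 2 (−2.35 and −2.34) far above them. Aqp11 to Aqp1 overlapped between groups (−3.37 ± 0.15 and −4.18 ± 1.23; exact permutation p = 0.4, adjusted p = 0.48). The Aqp4 and Aqp6 ratios carry the differing gene models, which amount to −0.59 and −0.47 in log2 length.

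**Figure D4:**
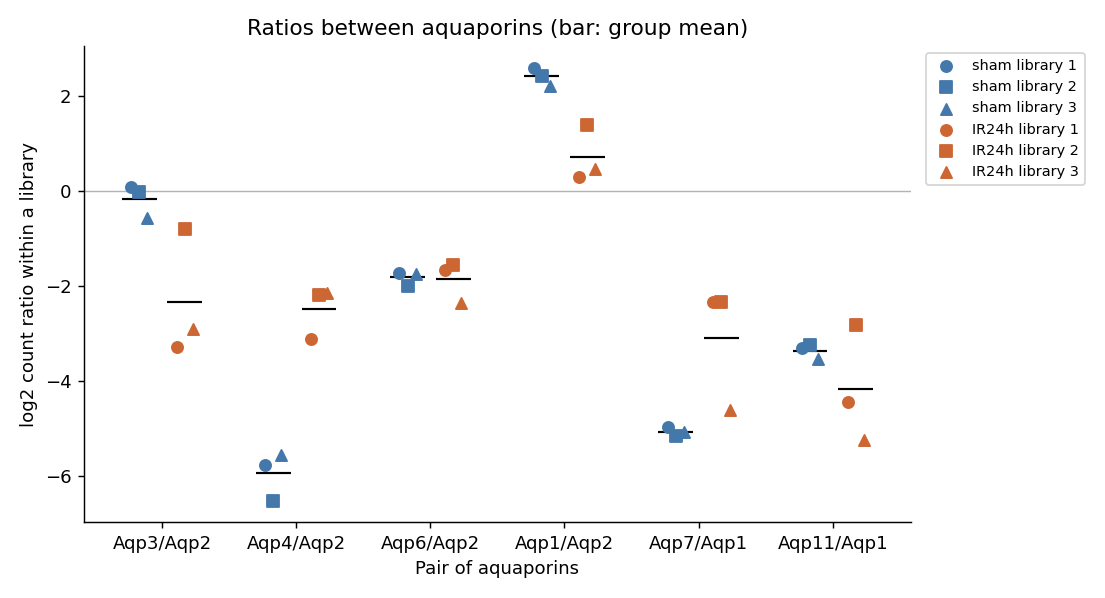
Log2 ratios of the counts of 2 aquaporins in the same library, for 6 pairs, with sham in blue, IR24h in orange and bars at group means. The pairs Aqp3/Aqp2, Aqp4/Aqp2, Aqp1/Aqp2 and Aqp7/Aqp1 do not overlap between groups, and Aqp6/Aqp2 and Aqp11/Aqp1 do.

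Genes that control water channels mostly missed the threshold. Vasopressin acts through the V2 receptor and cAMP to phosphorylate AQP2, and vesicle fusion proteins then deliver it to the membrane. Of 32 tested genes of that list, 3 rose, 1 fell and 28 were not called, 9.38 and 3.12% against a background of 8.65 and 7.62%, and a median of 0.02. The risers were Ptger4, a prostaglandin E2 receptor gene (2.43 ± 0.701 to 8.57 ± 2.12 CPM), Stk39, a kinase gene (21.9 ± 3.12 to 42.9 ± 5.54 CPM), and Stx4a, a syntaxin gene of vesicle fusion (23.4 ± 4.01 to 60.2 ± 23.9 CPM). Sgk1, an aldosterone-induced kinase gene, fell from 77.9 ± 9.86 to 26.0 ± 13.03 CPM. The most abundant of the list were not called: Hspa8, a chaperone gene (823 ± 132 to 1648 ± 496 CPM), Gnas, the stimulatory G protein gene (334 ± 36.2 to 537 ± 332 CPM, with a gene length that differed between the groups), and Prkar1a, a protein kinase A subunit gene (184 ± 7.58 to 186 ± 52.4 CPM). None of the 4 that changed was called without sham 1, 2 or 3 or when scaled by library size alone, and DESeq2 called 7 higher and 2 lower. Without IR24h 1, 2 or 3, 1, 9 and 2 of the list were higher, and 9 were lower without IR24h 2. Avpr2, the V2 receptor, had 5.88, 4.90 and 5.93 CPM in sham and 8.66, 3.48 and 18.4 CPM in IR24h 1 to 3 (adjusted p = 0.312). It was lowest in IR24h library 2 and highest in library 3, as Aqp2 and Aqp6 were.

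Of 15 transcription factors of tubule cells that carry aquaporins, 4 rose, 1 fell and 10 were not called, with a median of 0.16. That is 26.7% higher and 6.67% lower, against 8.65 and 7.62% of all tested genes. Elf3 (12.6 ± 1.64 to 52.7 ± 12.8 CPM), Ehf (13.7 ± 2.61 to 49.8 ± 18.9 CPM) and Grhl2 (5.48 ± 0.238 to 14.7 ± 5.73 CPM), all epithelial factors, rose beside Elf5. As given with the principal cell markers, Elf5 was tested only through its injured libraries. Gata2, which is known to act on the Aqp2 gene, fell from 20.3 ± 4.22 to 7.58 ± 3.55 CPM. Hnf4a (818 ± 61.3 to 335 ± 165 CPM) and Tfcp2l1 (275 ± 48.6 to 339.5 ± 257 CPM), the most abundant of the list, were not called. Without any 1 sham library, 1 member of the list was higher and 0 lower, and scaling by library size alone called 0 either way. DESeq2 called 4 higher and 4 lower. Without IR24h 2, 5 were higher and 4 lower, and without IR24h 3, 2 were higher and 0 lower, as 0 were lower without IR24h 1. Of 8 tested genes of urea transport and osmotic stress 1 rose, 12.5% against 8.65% of all tested genes. It was the heat shock gene Hspa1b (32.7 ± 2.02 to 85.1 ± 34.1 CPM), and 7 were not called. Among those were the taurine transporter gene Slc6a6 (298 ± 25.5 to 198 ± 99.3 CPM) and the inositol transporter gene Slc5a3 (60.5 ± 3.63 to 115 ± 51.5 CPM). The list had 0 higher members without sham 1, sham 2 or IR24h 3, and 5 without IR24h 2.

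Other genes with the most similar profile were sought by Pearson correlation of log2 CPM over the 6 libraries, among 9231 genes whose mean CPM was 10 or more. These correlations describe 6 points that share group and scaling. For Aqp1 they were Tmem86a, Mpc2 and Abhd8 (r = 0.997, 0.996 and 0.996), and for Aqp2 Sirt7, 2210016F16Rik and Ccpg1os (0.998, 0.994 and 0.994). For Aqp3 they were Rbbp4, Susd2 and Snap47 (0.998, 0.998 and 0.995), and for Aqp4 Prr14, Hspb1 and Ost4 (0.996, 0.995 and 0.992). Among the members themselves, Aqp2 went with Aqp6 (r = 0.974) and Aqp3 with Aqp11 (0.941), while Aqp2 and Aqp3 had r = 0.130.

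Aqp2 and Aqp6 are neighbours on chromosome 15, 16852 bases apart with Aqp5 between them. Aqp3 and Aqp7 are neighbours on chromosome 4, 44582 bases apart, and of these Aqp3 fell and Aqp7 was not called. On its other side the nearest tested gene to Aqp3 is Nol6 (0.07 ± 0.23). The nearest tested genes around Aqp4 are Kctd1 (1.64 ± 0.52, adjusted p = 0.0687) and Chst9 (0.38 ± 0.60). Those of Aqp11 are Clns1a (−0.03 ± 0.25) and Pak1 (−0.03 ± 0.43). None of these 5 genes beside called aquaporins was called, where 16.3% of all tested genes were. With so few genes, that count cannot be told apart from the share over all genes. Of the genes around Aqp1, which was not called, Adcyap1r1 was higher (2.32 ± 0.64, adjusted p = 0.0466) and Mindy4 was not called (−1.05 ± 0.31). In GENCODE M21, none of the 8 aquaporins shares exon bases with another gene on either strand.

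**Figure D5:**
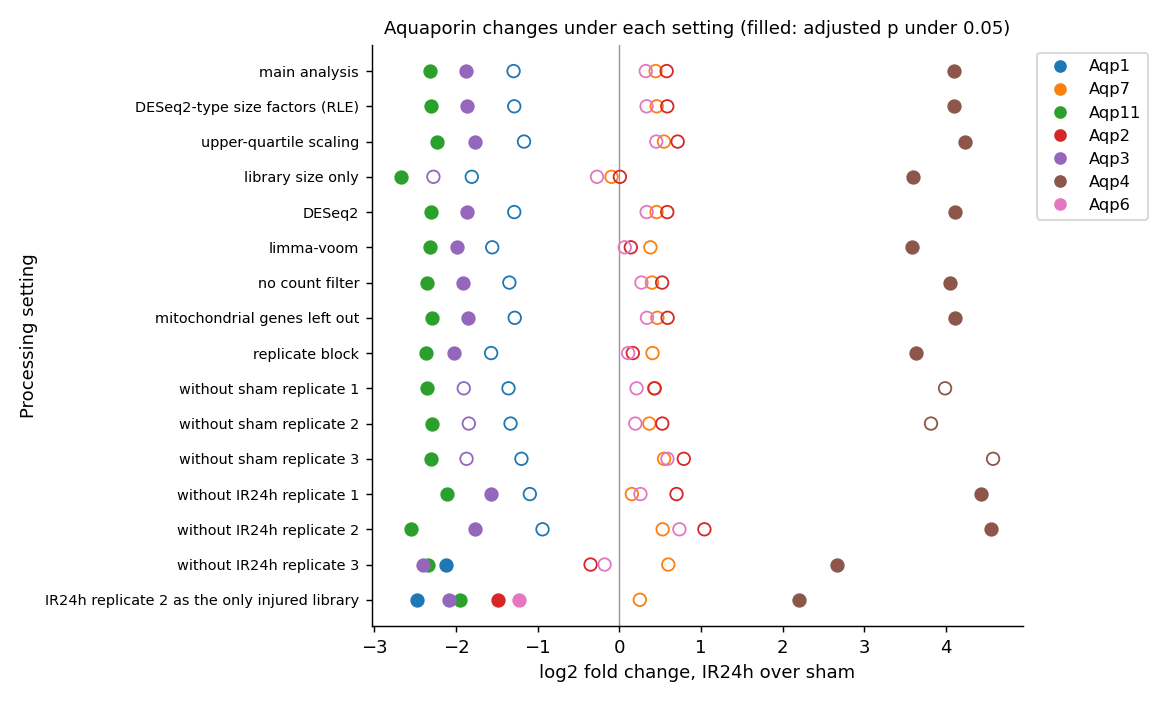
Log2 fold change (IR24h over sham) of the 7 tested aquaporins under the main analysis and 15 other settings, filled where the adjusted p was under 0.05. Aqp11 and Aqp3 lie left of 0 and Aqp4 right of 0 in every row, while Aqp2 lies left of 0 without IR24h replicate 3 and with IR24h replicate 2 as the only injured library, where the spread comes from sham alone.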

How the data were processed

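The authors deposited 1 table with raw counts per gene and FPKM values, per the file headers, for 3 sham and 3 IR24h libraries. CASAVA 1.8 and TopHat2 2.0.6 and the builds mm10 and GRCh38 are named in the submitters' processing notes; which counter, annotation and strand setting were used is stated nowhere in the sources used here. Of 22040 genes, 83 without sham values were left out. FPKM was used for levels between genes and for implied gene lengths.

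Counts were filtered with edgeR's expression filter, scaled by TMM and tested with edgeR 4.0.16 (quasi-likelihood, 2-sided, Benjamini-Hochberg over 13609 genes) in R 4.3.3, with limma 3.58.1 and DESeq2 1.42.0 as alternatives. SE came from the F statistic. CPM uses TMM-scaled library sizes. Ratios added 0.5 to each count. Python 3.11.15, SciPy 1.17.1 and matplotlib 3.10.9 gave tables, exact tests and figures; the fit was tested on simulated data. Coordinates are GENCODE M21 (GRCm38).

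The members and lists were chosen with earlier results of these data known. The rule for named genes took all members, other family genes and, per list, the 3 most abundant and up to 3 called members with the lowest adjusted p; some of these are not reported here. Avpr2, Slc14a2, Lep, Plin1, Cidec, Pparg, Ucp1, Cidea, Sgk1, Grhl2, Gata2 and the flanking genes were named after their values were seen.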

Additional observations from a re-analysis of the deposited data

How the results depend on the processing

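With library size as the only scaling, 398 genes were higher and 611 lower, against 1177 and 1037 under TMM scaling, and 1 aquaporin was lower; the higher share of calls was 39.4% against 53.2%. DESeq2 called 2073 higher and 1695 lower. With IR24h library 2 as the only injured library, a setting in which the spread comes from the sham libraries alone and the lone library is assumed to vary as they do, 2690 were higher and 2749 lower, among them 2 aquaporins higher (Aqp4 and Aqp8) and 5 lower, with Aqp2 at −1.49 and Aqp6 at −1.23; these calls describe 1 library and not replicated injury. Leaving out 1 library in turn gave 246 to 3297 genes higher and 196 to 3382 lower, and 0 to 2 aquaporins higher and 1 to 3 lower. The 2 higher, without IR24h 3, include Aqp8, which passed the filter there only through its injured libraries. Without sham 1, 2 or 3 the higher counts were 283, 246 and 292, and without IR24h 2 they were 3297. In those fits Aqp2 ranged from −0.35 to 1.04, Aqp6 from −0.18 to 0.74, and the Aqp6 to Aqp2 ratio from −0.19 to 0.22. Without a count filter, or without mitochondrial genes, 2 aquaporins were higher, the added gene being Aqp8, which is not tested in the main analysis; without mitochondrial genes it passed the filter only through its injured libraries. With library size only, Aqp6 was −0.27 and Aqp7 −0.095. The cause of the other changes was not tested. Upper-quartile scaling moved the median of all genes to 0.14 and the higher share to 58.9%; with limma-voom that share was 45.7%.

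Same-numbered libraries of the groups correlated in their deviations at −0.11, 0.12 and 0.23, so the numbers were not taken as pairs; sham 2 correlated best with IR24h 2 and sham 3 with IR24h 3, but sham 1 with IR24h 2. With the replicate block, 814 genes were higher and 843 lower, and Aqp4 (3.63), Aqp3 (−2.02) and Aqp11 (−2.37) were called. For the ratios, the mean difference within pairs equals the difference of group means by construction, so the block could not change its sign or size. The exact p values of the ratios with the block were 0.25 to 1.0, where 3 pairs allow no p below 0.25. Depth limits Aqp8 most, with 1 to 6 counts per sham library.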

Other observations

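The other 4 aquaporin family genes listed were close to 0 counts. Aqp12, a pancreatic member, had 0 counts in all 6 libraries. Mip, the lens channel, had 2 counts in sham library 1 and 0 elsewhere. Aqp9, an aquaglyceroporin of liver, had 3 counts over the sham libraries and 8 over IR24h, a pooled ratio of 3.98 (95% exact counting interval 0.956 to 23.3). Aqp5, the channel of secretory glands and lung that lies between Aqp2 and Aqp6, had 7 counts over sham and 17 over IR24h, 15 of the latter in IR24h library 3, where Aqp2, Aqp4 and Aqp6 were highest too. Its gene model was 6935 bases in the sham values and 2678 in the IR24h values. None of the 4 passed the expression filter.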
